A study of Mus musculus with 8 samples.

Results

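The genes described here are 44 named members of the TGF-beta, activin and BMP pathway, listed by symbol with earlier results of these data known. A probe set naming exactly 1 gene was found for 43 of the 44 members, among 22180 genes measured in this way. The signal of Gdf15, a stress-induced relative of these ligands, was not analysed here. Each of the 43 measured members had 1 such probe set, so no choice between probe sets had to be made. The median gene level over the 8 lines was 5.66 on the log2 scale, and 39 of the 43 members lay above it. The other 4 were Bmpr1b, Eng, Fst and Nog.

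TGF-beta and activin ligands bind type II and type I receptor kinases that phosphorylate SMAD2 and SMAD3, whereas BMP ligands act through their own type I receptors on SMAD1, SMAD5 and SMAD9. Both sets of receptor SMADs join the shared partner SMAD4 and enter the nucleus, where the BMP branch drives the Id genes and both branches induce their own inhibitors, SMAD7 and SMAD6. In liver, TGF-beta restrains hepatocyte growth and drives matrix production and a bile duct-like program, and BMP signalling controls hepcidin and thus iron.

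The samples were 8 clonal mouse tumour cell lines of strain C57BL/6, 4 from intrahepatic cholangiocarcinoma (ICC, cancer of the bile ducts inside the liver) and 4 from hepatocellular carcinoma (HCC). All 8 came from tumours driven by c-Myc and NrasG12V on the pCaMIN vector, in mice whose liver cells received it by focal electroporation in vivo (ICC) or by hydrodynamic injection into the tail vein (HCC), so tumour type and delivery route cannot be told apart. ICC9 and ICC10 are labelled female and ICC2.7 and ICC2.9 male; HCC2.1 and HCC2.4 are labelled female and HCC1 and HCC4 male. The lines were untreated and grown in DMEM with 10% fetal calf serum under 7.5% CO2, and 100 ng of total RNA from each was labelled with the WT PLUS kit for 1 Affymetrix array per line. The labels give no age and do not say which lines share a tumour or an animal, so the p-values below measure only the spread between these lines. In each type the lines whose names begin with 2 and a point are of 1 labelled sex, male in ICC and female in HCC, and this naming coincides with the contrast of the type difference between the sexes.

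The medians of the 8 arrays lay between 5.02 and 5.09. The 8 deposited columns spanned only 7 independent directions: the smallest singular value was 0.579 against 54.5 for the next. The missing direction was carried mainly by ICC9, with a weight of 0.782, and ICC10, with a weight of -0.538, so ICC9 is close to a combination of the other columns, and it is unknown which processing step produced this. Results are given below with that direction added to the fit where it changes a call. Cholangiocyte markers averaged 7.02 to 7.96 in the ICC lines and 6.92 to 7.67 in the HCC lines, with 3 of 4 markers above the median gene level. Over the 8 lines Sox9 measured 11.45 to 11.86, Krt19 5.60 to 9.26, Krt7 5.84 to 6.04 and Epcam, the marker below that level, 4.14 to 5.12. Krt19 differed by labelled sex, at 7.76 to 9.26 in the female-labelled and 5.60 to 6.89 in the male-labelled lines. The female minus male difference was 2.19 (adjusted p 0.00483 by limma, with tumour type in the model), where 2.94% of all genes passed. Spp1, also listed, was not analysed here. Such averages mix levels of different probe sets and serve only to set lines side by side. Hepatocyte markers averaged 4.64 to 4.74 in ICC and 4.84 to 5.19 in HCC, with 1 of 5 above it, so most defining hepatocyte genes lay below the median gene level in both types. Endothelial markers averaged 4.71 to 4.90 in ICC and 4.75 to 4.91 in HCC with 0 of 5 above the median gene level, and macrophage and leukocyte markers 4.96 to 5.66 and 5.38 to 5.58 with 1 of 5 above it. Stellate cell and fibroblast markers averaged 5.17 to 5.94 in ICC and 5.04 to 5.52 in HCC, with 2 of 8 above the median gene level, Pdgfrb and Col1a1. Pdgfrb measured 10.55 in ICC2.7 and 9.89 in ICC2.9, against 6.66 to 8.41 in the other 6 lines, and Col1a1 9.82 and 8.19, against 6.41 to 7.18. Of the other 6, Des differed by -0.87 and Reln by 0.34 as ICC minus HCC, and Lrat, Pdgfra, Lum and Dcn by 0.00 to 0.10. The part of these markers in the results was not tested. In whole-culture RNA, fewer cells expressing a gene and less RNA per cell cannot be told apart.

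**Figure D1:**
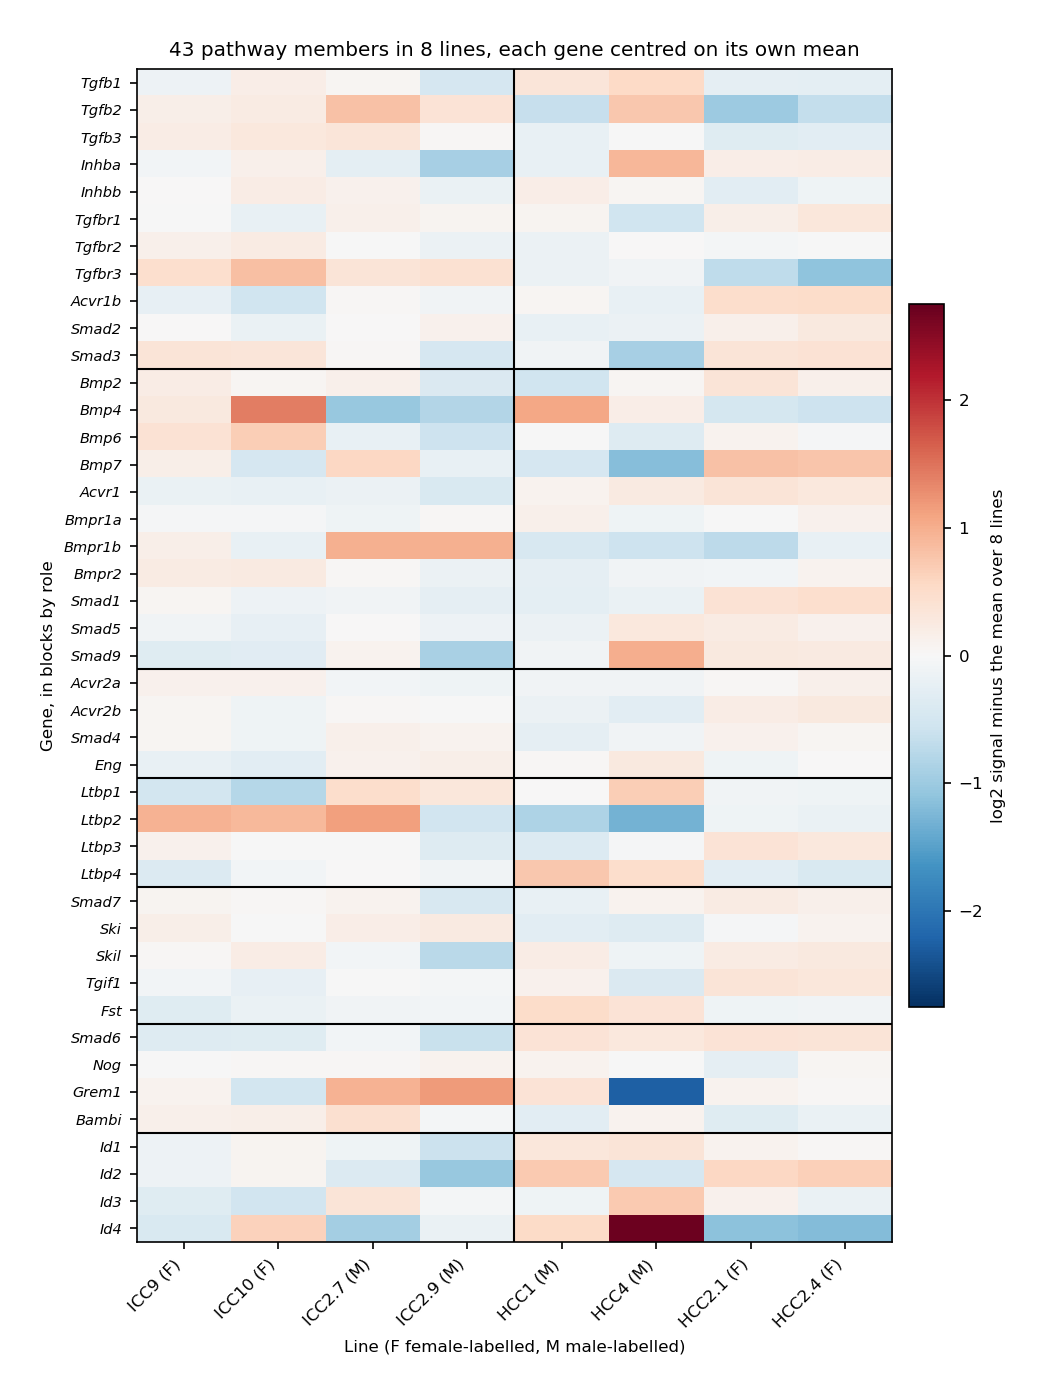
The heat map plots each of the 43 members (rows, in blocks by role) in each of the 8 lines (columns), as log2 signal minus that gene's mean over the 8 lines. The strongest single cells are Id4, at 9.64 and above its mean, and Grem1, at 8.0 and below its mean, both in HCC4.

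The first comparison asked which pathway members differ between ICC and HCC lines. No member passed limma's test at an adjusted p under 0.05 over all 22180 genes, where 58 genes (0.261%) passed. At an unadjusted p under 0.05 there were 11 of 43 members (25.6%) beside 14.1% of all genes. Of these, 6 were higher in ICC (Tgfb3, Tgfbr3, Bmpr1b, Ltbp2, Ski and Bambi) beside 7.06% of all genes in that direction, and 5 were lower (Acvr1, Smad9, Smad6, Id1 and Id2) beside 7.04%. The median ICC minus HCC difference over the 43 members was -0.07 and the median size of the difference was 0.23, against 0.00 and 0.13 over all genes. In 4 members (9.30%) the lines of the types did not overlap, beside 8.63% of all genes; these were Tgfb3, Tgfbr3, Acvr1 and Smad6. The count at the unadjusted threshold was 7 without ICC2.9, where the share of all genes was 11.9%. With lines of 1 type and sex as a random block the count was 6, beside 7.83% of all genes. On female-labelled lines alone the count was 24, beside 25.6% of all genes, and on male-labelled lines alone the count was 13, beside 17.2%. Fitted on genes above the median level alone, it was 10 of 39 members, beside 17.1% of such genes. With array weights estimated from the data, 8 members and 10.3% of all genes passed the adjusted threshold. A range over the 8 lines of at least 1.5 was found in 11 members (25.6%), beside 6.33% of all genes: Tgfb2, Inhba, Tgfbr3, Bmp4, Bmp7, Bmpr1b, Smad9, Ltbp2, Grem1, Id2 and Id4. For the range, the share among genes above the median level, where most members lay, was not taken.

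Smad6 encodes an inhibitory SMAD that blocks BMP receptor signalling and is itself induced by it. Its log2 signal was 7.32 in ICC9, 7.33 in ICC10, 7.59 in ICC2.7 and 7.06 in ICC2.9. In the HCC lines it was 8.05 in HCC1, 7.96 in HCC4, 8.06 in HCC2.1 and 8.02 in HCC2.4. All 4 HCC lines lay above all 4 ICC lines and close to each other, while the ICC lines were spread more widely. The ICC mean was 7.33 ± 0.22 (SD, n = 4) and the HCC mean 8.02 ± 0.05 (SD, n = 4), a difference of -0.70 (SE 0.11) or 1.62-fold, with an adjusted p of 0.0548 by limma. The difference was -0.72 among female-labelled lines and -0.68 among male-labelled lines. With sex as a covariate, where 1.93% of all genes passed, the adjusted p was 0.0303, and over the alternatives run for this gene it lay between 0.00186 and 0.914. Adding the missing direction to the fit with sex gave 0.0905, where 0.537% of all genes passed. Without the covariate it was 0.149 with that direction, where 0.0541% of all genes passed, and 0.287 with lines of 1 type and sex as a random block.

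Acvr1, the type I receptor also known as ALK2, used by BMP6 and BMP7, measured 9.21 in ICC9, 9.18 in ICC10, 9.23 in ICC2.7 and 8.97 in ICC2.9. Its HCC values were 9.48 in HCC1, 9.64 in HCC4, 9.74 in HCC2.1 and 9.67 in HCC2.4. The groups did not overlap, and the gap separated ICC2.7 from HCC1. The means were 9.15 ± 0.12 and 9.63 ± 0.11 (SD, n = 4 each), a difference of -0.49 (SE 0.10) or 1.40-fold, with an adjusted p of 0.0806 by limma. It was 0.0378 with sex as a covariate and 0.119 once the missing direction joined that fit. Without the covariate it was 0.217 with that direction and 0.345 with the random block, and over the alternatives run for Acvr1 it lay between 0.00722 and 0.921. Both sexes gave a like value, -0.51 in female-labelled and -0.46 in male-labelled lines. Of the other type I receptors of the BMP arm, Bmpr1a differed by -0.07 with a range of only 0.25 over all 8 lines.

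Because Acvr1, Smad6, Smad9, Id1 and Id2 all measured lower in ICC at an unadjusted p under 0.05, promoters were read for SMAD motifs from RefSeq sequences on GRCm38.p6. That of Id1 was not analysed here. A promoter here is the 300 bases from 250 before to 50 after the start. In all, 45 promoters of 32 listed members, Gdf15 among them, were found among 32851. The SMAD3 and SMAD4 palindrome GTCTAGAC, which reads the same on both strands, was in 1 of the 45 member promoters (2.22%), that of Smad6, beside 0.213% of all promoters. The GC-rich motif GGCGCC, bound by BMP SMADs and also palindromic, was in 13 (28.9%) beside 11.9% of all promoters. Members with it included Smad9, Id2, Acvr1b, Bmpr1a, Id4, Ltbp4 and Smad5, which had lower means in ICC. The others were Ski, Grem1, Bmpr2 and Tgfbr1, which did not, so the motif was not confined to members lower in ICC. The share among promoters of like GC content was not taken. The shorter SMAD motif CAGACA, or TGTCTG on the other strand, was in 7 (15.6%) beside 21.0% of all. A match is a description of letters and not a measured binding site. The 3 promoters with a match among the 4 read, those of Acvr1, Smad6, Smad9 and Id2, are shown with the matching letters in capitals, 1 motif in each, in the direction of transcription; that of Smad6 lies at chr9:64022010-64022309 on the minus strand, that of Smad9 at chr3:54755332-54755631 on the plus strand and that of Id2 at chr12:25096043-25096342 on the minus strand.
Smad6: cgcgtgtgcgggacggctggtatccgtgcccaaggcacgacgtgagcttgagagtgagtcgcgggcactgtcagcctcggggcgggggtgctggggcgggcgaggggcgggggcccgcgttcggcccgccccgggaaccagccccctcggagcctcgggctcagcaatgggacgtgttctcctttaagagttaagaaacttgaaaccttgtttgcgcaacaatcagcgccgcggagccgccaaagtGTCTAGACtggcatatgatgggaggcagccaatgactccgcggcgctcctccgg
Smad9: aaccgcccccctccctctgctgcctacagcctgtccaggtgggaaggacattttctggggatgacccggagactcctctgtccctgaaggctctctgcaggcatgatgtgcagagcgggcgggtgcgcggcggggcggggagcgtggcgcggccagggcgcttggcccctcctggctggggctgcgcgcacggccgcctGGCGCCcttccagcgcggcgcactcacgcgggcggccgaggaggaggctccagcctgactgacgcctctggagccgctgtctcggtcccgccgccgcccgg
Id2: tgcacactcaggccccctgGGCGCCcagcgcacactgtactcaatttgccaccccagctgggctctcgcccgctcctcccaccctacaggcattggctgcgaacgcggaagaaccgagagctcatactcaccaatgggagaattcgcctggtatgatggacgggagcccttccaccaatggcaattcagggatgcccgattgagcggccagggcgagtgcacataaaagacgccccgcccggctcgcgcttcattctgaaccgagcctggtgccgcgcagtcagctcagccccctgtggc
The GTCTAGAC of Smad6 begins at base 247 of the 300 and runs across the start. The GGCGCC of Smad9 begins at base 200 and that of Id2 at base 20. The promoter of Acvr1 held none of the 3 motifs in this window.

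Among TGF-beta ligands, Tgfb3 measured 8.90 in ICC9, 8.98 in ICC10, 9.03 in ICC2.7 and 8.73 in ICC2.9. In HCC it was 8.49 in HCC1, 8.68 in HCC4, 8.36 in HCC2.1 and 8.41 in HCC2.4. The types did not overlap, but only a narrow gap lay between ICC2.9 and HCC4. The difference was 0.42 (SE 0.10) or 1.34-fold, with an adjusted p of 0.132 by limma. Tgfb2 measured 6.28, 6.34, 6.92 and 6.50 in ICC9, ICC10, ICC2.7 and ICC2.9, and 5.48, 6.86, 5.12 and 5.47 in HCC1, HCC4, HCC2.1 and HCC2.4. HCC4 lay among the ICC lines, and the other 3 HCC lines lay below all of them. The difference was 0.78 (SE 0.35, adjusted p 0.357 by limma). Without HCC4, where 0.41% of all genes passed, Tgfb2 passed the adjusted threshold (adjusted p 0.0492 by limma, in a range up to 0.921 over its alternatives). It also passed in the fit on female-labelled lines (0.0373), where 7 members and 3.14% of all genes passed. Tgfb1, the most widely expressed of the 3 isoforms, ranged from 10.63 to 11.28 in ICC and from 10.82 to 11.64 in HCC. The ranges overlapped in part: the male-labelled HCC lines lay above every ICC line and ICC2.9 below every HCC line. Its difference was 0.28 in female-labelled and -0.65 in male-labelled lines.

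Inhba, whose product forms activin A, measured 9.46 in ICC9, 9.66 in ICC10, 9.26 in ICC2.7 and 8.61 in ICC2.9. In HCC1, HCC4, HCC2.1 and HCC2.4 it was 9.33, 10.45, 9.71 and 9.73. The extremes were ICC2.9 at the bottom and HCC4 at the top, and the remaining lines of the types overlapped. The difference was -0.56 (SE 0.28; adjusted p 0.408 by limma), and that of Inhbb, which forms activin B, was 0.09.

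Tgfbr3 encodes betaglycan, a co-receptor that presents TGF-beta2 to the signalling receptors. Its signal was 7.38 in ICC9, 7.75 in ICC10, 7.26 in ICC2.7 and 7.33 in ICC2.9, against 6.76 in HCC1, 6.82 in HCC4, 6.22 in HCC2.1 and 5.80 in HCC2.4. Every ICC line was above every HCC line, and the female-labelled HCC lines were the lowest of all. The means were 7.43 ± 0.22 and 6.40 ± 0.48 (SD, n = 4 each), a difference of 1.03 (SE 0.23) or 2.04-fold with an adjusted p of 0.105 by limma. It was 1.56 in female-labelled and 0.51 in male-labelled lines, and the test of that difference gave an adjusted p of 0.119 by limma. The signalling receptors Tgfbr1 and Tgfbr2 differed by 0.00 and 0.10. Acvr1b, the activin type I receptor ALK4, differed by -0.42 (adjusted p 0.361 by limma), with -0.88 in female-labelled and 0.04 in male-labelled lines. The receptor SMADs of this arm, Smad2 and Smad3, differed by -0.02 and 0.13.

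**Figure D2:**
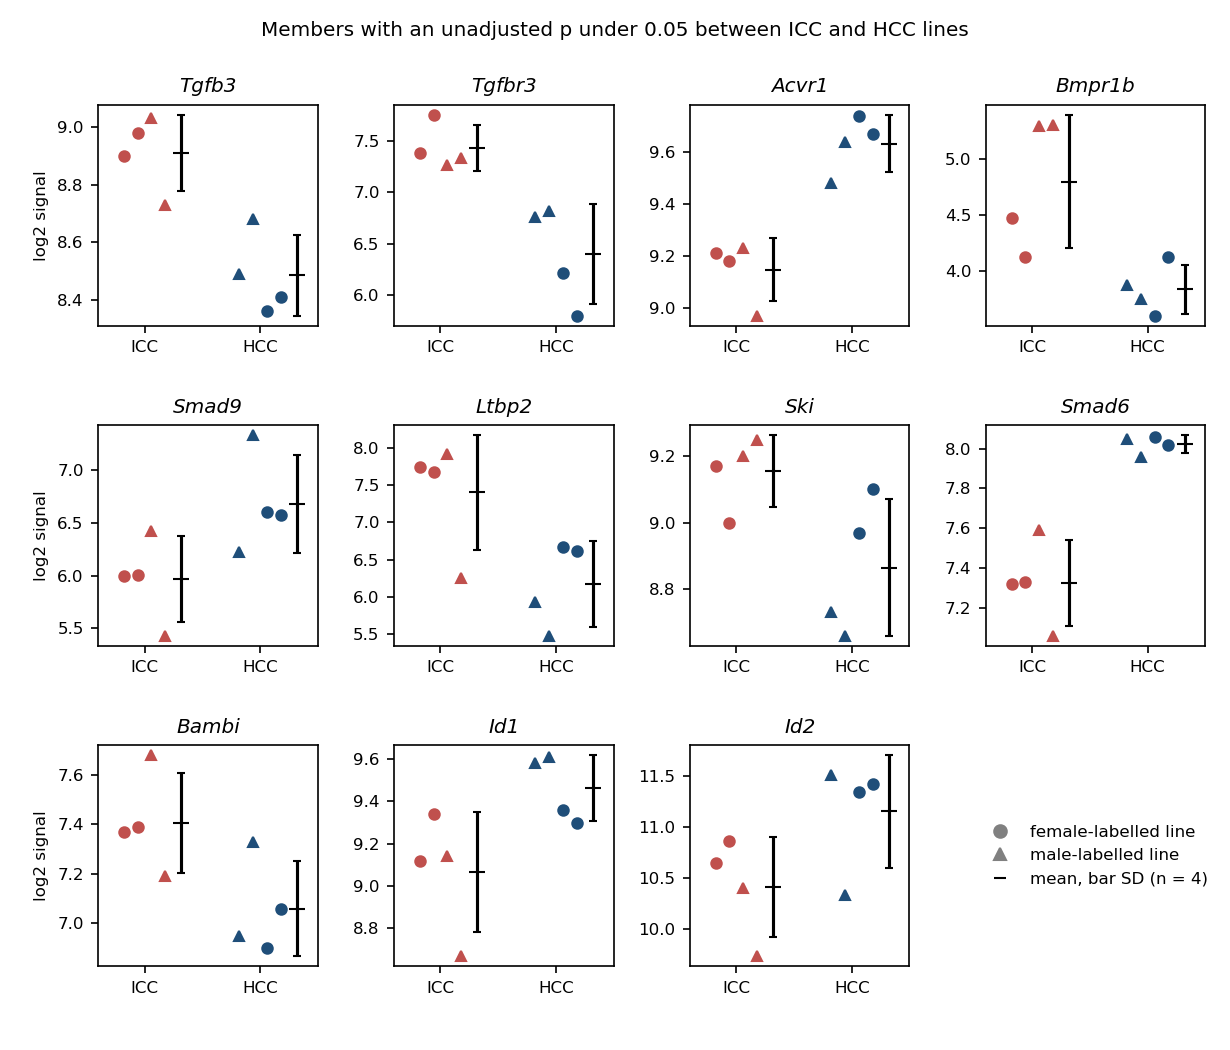
The panels plot log2 signal in each line for the 11 members with an unadjusted p under 0.05, ICC lines beside HCC lines; circles are female-labelled and triangles male-labelled lines, and the black mark with its bar is the group mean with its SD (n = 4). Smad6, Acvr1, Tgfb3 and Tgfbr3 are the 4 in which the ICC and HCC lines do not overlap, with ICC lower in Smad6 and Acvr1 and higher in Tgfb3 and Tgfbr3.

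In the BMP arm, Bmpr1b, a type I receptor, lay below the median gene level, with a mean over the 8 lines of 4.32. It measured 4.47, 4.12, 5.29 and 5.30 in ICC9, ICC10, ICC2.7 and ICC2.9, and 3.87, 3.75, 3.60 and 4.12 in HCC1, HCC4, HCC2.1 and HCC2.4. The male-labelled ICC lines stood above the other 6 lines, and ICC10 and HCC2.4 had the same value. The difference was 0.96 (SE 0.27; adjusted p 0.177 by limma), 1.49 in male-labelled and 0.44 in female-labelled lines. It was the 1 member called in the fit of male-labelled lines alone, with an adjusted p of 0.0213, where 0.902% of all genes passed; over its alternatives the adjusted p reached 0.921.

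Smad9, a BMP receptor SMAD that is itself a target of BMP signalling, measured 6.00, 6.01, 6.42 and 5.43 in ICC9, ICC10, ICC2.7 and ICC2.9. Its values in HCC1, HCC4, HCC2.1 and HCC2.4 were 6.22, 7.33, 6.60 and 6.57. HCC1 lay below ICC2.7, and HCC4 stood above all other lines. The difference was -0.72 (SE 0.26; adjusted p 0.275 by limma). Smad1 and Smad5 differed by -0.21 and -0.23.

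Bmp4 and Bmp7 are BMP ligands whose type difference had opposite signs in the sexes. Bmp4 measured 6.09 in ICC9, 7.24 in ICC10, 4.77 in ICC2.7 and 5.01 in ICC2.9, and 6.88 in HCC1, 6.00 in HCC4, 5.33 in HCC2.1 and 5.26 in HCC2.4. Bmp7 measured 10.22, 9.58, 10.62 and 9.85 in the same ICC lines and 9.59, 8.89, 10.85 and 10.81 in the same HCC lines. For Bmp4 the lines whose names begin with 2 and a point were the lowest 4; for Bmp7 they held the highest 3 places and the fifth, with ICC9 between. The ICC minus HCC difference of Bmp4 was -0.09 over all lines, 1.37 among female-labelled and -1.55 among male-labelled lines. That of Bmp7 was 0.03 over all lines, -0.93 among female-labelled and 0.995 among male-labelled lines. Of the remaining ligands, Bmp2 had equal means in both types and Bmp6 differed by 0.15. The type II receptor Bmpr2 differed by 0.17.

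Genes shared by the arms differed little between the types. Acvr2a and Acvr2b, type II receptors for activins and BMPs, each differed by 0.02 or less in size, as 0.02 and -0.02. Smad4 differed by 0.09 and ranged over 0.38 across the 8 lines. Eng, the endothelial co-receptor endoglin, differed by -0.10, and its values of 5.26 to 5.82 were close to the median gene level.

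The latency proteins store TGF-beta in the matrix, except LTBP2, which does not bind it. Ltbp2 measured 7.74, 7.68, 7.92 and 6.26 in ICC9, ICC10, ICC2.7 and ICC2.9, and 5.93, 5.48, 6.67 and 6.61 in HCC1, HCC4, HCC2.1 and HCC2.4. ICC2.9 lay among the HCC lines, and the other 3 ICC lines lay above all of them. The difference was 1.23 (SE 0.40) or 2.34-fold, the largest in size among the 43 members, with an adjusted p of 0.229 by limma. Ltbp1, Ltbp3 and Ltbp4 differed by -0.24, -0.13 and -0.27.

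Inhibitors of the TGF-beta arm gave 1 of 5 members at an unadjusted p under 0.05. Ski, a nuclear co-repressor of SMAD complexes, measured 9.17, 9.0, 9.20 and 9.25 in ICC9, ICC10, ICC2.7 and ICC2.9, and 8.73, 8.66, 8.97 and 9.10 in HCC1, HCC4, HCC2.1 and HCC2.4. HCC2.4 lay above ICC10, so the types overlapped, and the difference was 0.29 (SE 0.12; adjusted p 0.314 by limma). The related co-repressor Skil differed by -0.29, in the other direction, and its lines overlapped between the types. Smad7, the inhibitory SMAD placed here with the TGF-beta arm, differed by -0.12, against -0.70 for Smad6. Tgif1 differed by -0.18, and Fst, which binds activin, by -0.34 (adjusted p 0.384 by limma).

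Bambi, a pseudoreceptor without a kinase, was placed here among the inhibitors of the BMP arm. It measured 7.37, 7.39, 7.68 and 7.19 in ICC9, ICC10, ICC2.7 and ICC2.9, and 6.95, 7.33, 6.90 and 7.06 in HCC1, HCC4, HCC2.1 and HCC2.4. Only HCC4 reached into the ICC values, and the difference was 0.35 (SE 0.13; adjusted p 0.295 by limma). Grem1, a secreted BMP antagonist, had a range of 3.40 over the lines. It measured 10.33, 9.73, 11.19 and 11.40 in ICC9, ICC10, ICC2.7 and ICC2.9, and 10.62, 8.0, 10.34 and 10.27 in HCC1, HCC4, HCC2.1 and HCC2.4. The male-labelled ICC lines were the highest and HCC4 the lowest, with the remaining 5 lines between. The difference was 0.86 (SE 0.60; adjusted p 0.562 by limma). Nog, the antagonist noggin, ranged from 5.27 to 5.60 and differed by 0.06.

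The Id genes encode inhibitors of differentiation, proteins that block basic helix-loop-helix factors, and are classical BMP targets. All 4 had a lower mean in ICC, as did 49.1% of all genes, with a median difference of -0.42 against 0.00 over all genes. Of the 4, 2 (Id1 and Id2) had an unadjusted p under 0.05, beside 14.1% of all genes. Id1 measured 9.12, 9.34, 9.14 and 8.67 in ICC9, ICC10, ICC2.7 and ICC2.9, and 9.58, 9.61, 9.36 and 9.30 in HCC1, HCC4, HCC2.1 and HCC2.4. ICC10 lay above HCC2.4 and the groups were otherwise apart, with a difference of -0.40 (SE 0.15; adjusted p 0.289 by limma), -0.10 in female-labelled and -0.69 in male-labelled lines. Id2 measured 10.65, 10.86, 10.40 and 9.73 in the ICC lines in that order, and 11.51, 10.33, 11.35 and 11.43 in the HCC lines. HCC4 lay among the ICC lines and the other 3 HCC lines stood above all of them, with a difference of -0.75 (SE 0.31; adjusted p 0.330 by limma).

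Id4 had the widest range of any member, 3.88. It measured 6.53, 7.58, 6.00 and 6.77 in ICC9, ICC10, ICC2.7 and ICC2.9, and 7.46, 9.64, 5.81 and 5.76 in HCC1, HCC4, HCC2.1 and HCC2.4. HCC4 stood far above every other line, while the female-labelled HCC lines were the lowest. The difference was -0.45 (SE 0.80; adjusted p 0.847 by limma), with 1.27 among female-labelled and -2.17 among male-labelled lines, and it turned to 0.38 without HCC4. Id3 differed by -0.28. The mean of the 4 centred Id genes was highest in HCC4, at 0.83, followed by HCC1, at 0.36. That of ICC10, at 0.07, lay above HCC2.1, at -0.09, and HCC2.4, at -0.17, so the types overlapped. In ICC9, ICC2.7 and ICC2.9 this mean was -0.26, -0.27 and -0.47. The other 5 measured BMP targets on the wider list, Hamp, Atoh8, Msx2, Dlx3 and Hey1, also had lower means in ICC, as did 49.1% of all genes. Their median was -0.42, and 1 of the 5, Hamp, had an unadjusted p under 0.05, beside 14.1% of all genes. In female-labelled lines Hey1 turned to 0.185 and Msx2 was -0.095, and apart from Hey1 these targets were negative in both sexes. Hamp, the hepcidin gene, differed by -0.91 (adjusted p 0.238 by limma). Its mean level of 2.4 lay at percentile 4.15 of all genes, near the floor of the array. It measured 1.88, 1.82, 1.73 and 2.33 in ICC9, ICC10, ICC2.7 and ICC2.9, and 2.28, 3.82, 2.57 and 2.74 in HCC1, HCC4, HCC2.1 and HCC2.4. HCC1 lay below ICC2.9 and HCC4 stood above all other lines. Whether such a low signal exceeds background was not tested.

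**Figure D3:**
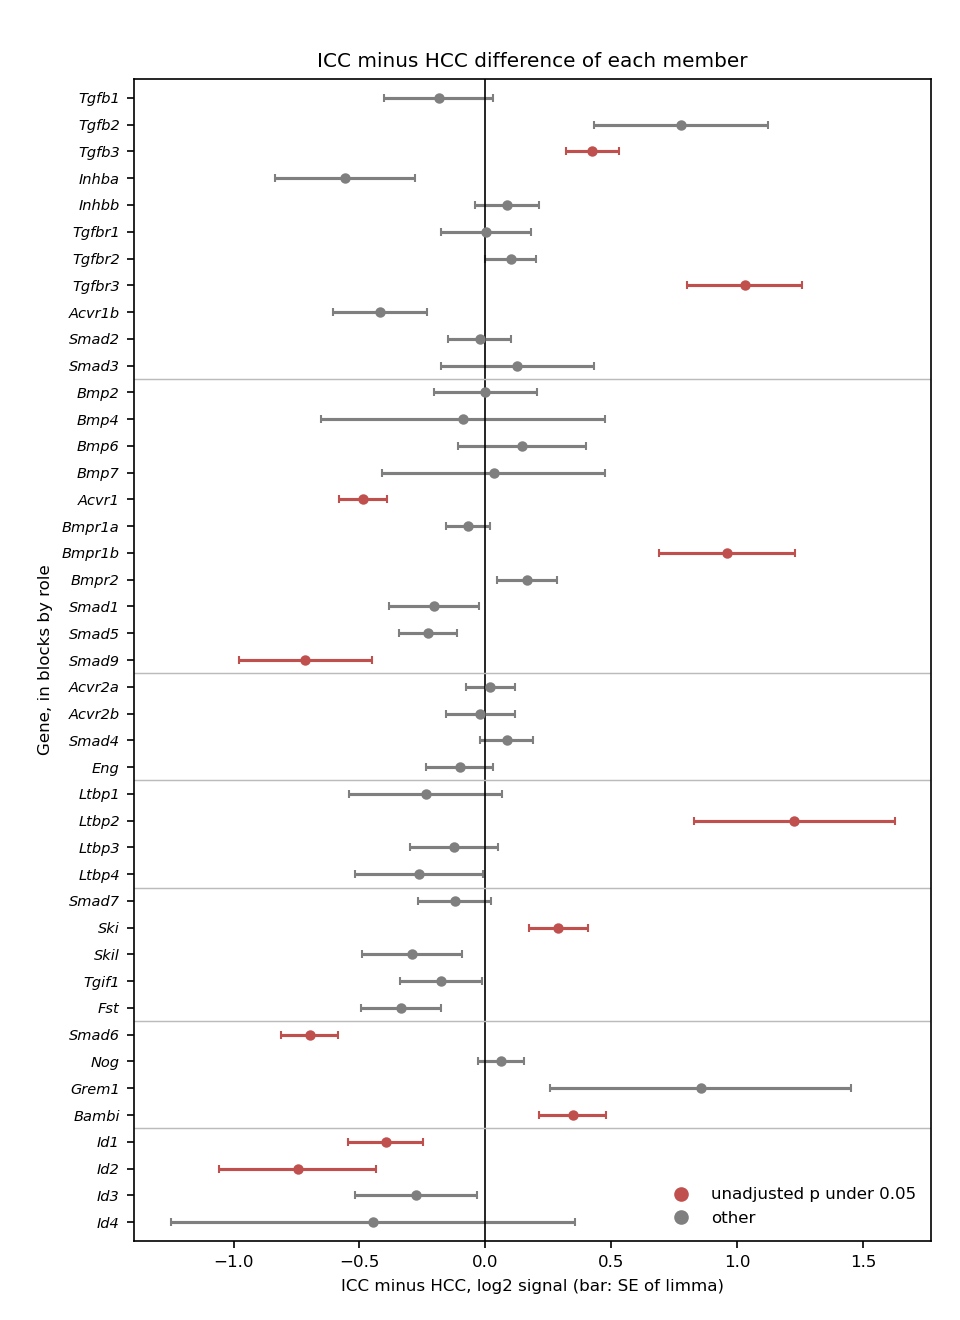
The plot shows the ICC minus HCC difference in log2 signal for each of the 43 members, in blocks by role, with the SE from limma as the bar. The Id block lies wholly to the left of 0, and Ltbp2 and Tgfbr3 lie farthest to the right, at 1.23 and 1.03.

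The arms were then set against each other in each line. Genes were first centred on their own mean over the 8 lines, since levels of different probe sets cannot be compared, and averaged over the 11 members of each arm. The TGF-beta and activin arm stood at 0.08 in ICC9, 0.13 in ICC10, 0.15 in ICC2.7 and -0.11 in ICC2.9, and at -0.09 in HCC1, 0.03 in HCC4, -0.12 in HCC2.1 and -0.07 in HCC2.4. The BMP arm stood at 0.07, 0.08, 0.02 and -0.25 in the ICC lines and at -0.09, -0.06, 0.11 and 0.13 in the HCC lines, in the same order. ICC2.9 was low in both arms, and the female-labelled HCC lines were low in the first and high in the second.

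The TGF-beta arm minus the BMP arm was 0.01 in ICC9, 0.06 in ICC10, 0.13 in ICC2.7 and 0.14 in ICC2.9. It was 0.00 in HCC1, 0.09 in HCC4, -0.23 in HCC2.1 and -0.20 in HCC2.4. The male-labelled HCC lines lay within the ICC range or just under it, so the types overlapped and only the female-labelled HCC lines stood apart. The means were 0.08 ± 0.06 in ICC and -0.08 ± 0.15 in HCC (SD, n = 4 each), a difference of 0.17 that carries no p because it is a score over listed members. The ICC minus HCC difference was 0.12 for the TGF-beta arm and -0.04 for the BMP arm, whose sign turned to 0.03 without ICC2.9. By number of members above their own mean, the TGF-beta arm had 7, 8, 9 and 5 of 11 in the ICC lines and 4, 5, 5 and 5 in the HCC lines. The BMP arm had 7, 4, 6 and 2 of 11 and 3, 5, 7 and 8.

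**Figure D4:**
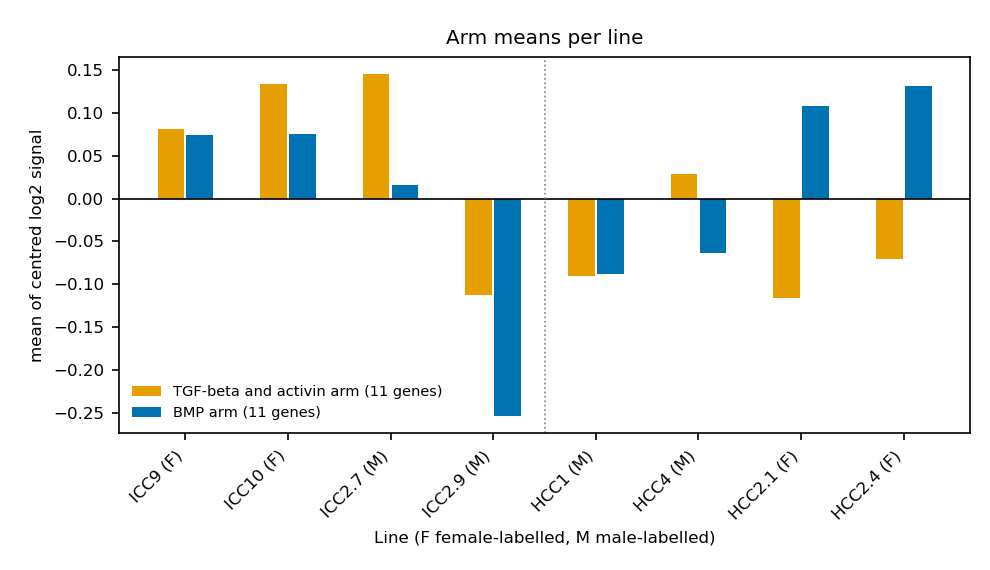
The plot shows, for each line, the mean of centred log2 signal over the members of the TGF-beta and activin arm and of the BMP arm, 11 genes each, as bars from 0 with no error. HCC2.1 and HCC2.4 are the lines in which the BMP arm stands farthest above the TGF-beta arm, and the BMP bar of ICC2.9 is the lowest of all at -0.25.

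The second comparison asked whether female- and male-labelled lines differ, with tumour type in the model. No member passed limma's adjusted threshold, which 653 genes (2.94%) passed, and 12 of 43 (27.9%) had an unadjusted p under 0.05 beside 17.5% of all genes. In a fit on genes above the median level alone, the count was 10 of 39 members, beside 23.9% of such genes. In the fit on all genes, 7 of the 12 were higher in the female-labelled lines. The smallest adjusted p was that of Ltbp1, at 9.25 in ICC9, 8.97 in ICC10, 9.65 in HCC2.1 and 9.63 in HCC2.4, against 10.24 in ICC2.7, 10.05 in ICC2.9, 9.75 in HCC1 and 10.43 in HCC4. All 4 male-labelled lines lay above the female-labelled ones, by -0.74 as female minus male (SE 0.18; adjusted p 0.0772 by limma). The adjusted p was 0.00903 without HCC1, the lowest over its alternatives, and 0.249 at the highest. Smad3, the main transcriptional SMAD of TGF-beta, measured 10.07, 10.04, 10.07 and 10.12 in ICC9, ICC10, HCC2.1 and HCC2.4, and 9.74, 9.26, 9.62 and 8.79 in ICC2.7, ICC2.9, HCC1 and HCC4. The female-labelled lines were tightly grouped above all male-labelled lines, a difference of 0.72 (SE 0.19; adjusted p 0.0983 by limma). Without ICC2.7, Ltbp2 was the 1 member called, beside 1.57% of all genes.

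The third comparison asked whether the type difference is the same in both sexes. No member and no gene passed limma's adjusted threshold (0 of 22180, 0%), and 18 of 43 members (41.9%) had an unadjusted p under 0.05 beside 20.1% of all genes. Fitted on genes above the median level alone, this count was 16 of 39 members, beside 31.1% of such genes. It was 8 without ICC10 and 11 without HCC2.4, where the share of all genes was 7.87% and 15.6%. The smallest adjusted p among members was 0.113, for Bmp4, whose female difference exceeded the male one by 2.92 (SE 0.56). With the missing direction added to the fit this was 3.31 with an adjusted p of 0.0371, and without ICC9 it was 3.50 with an adjusted p of 0.0279, in a range up to 0.277 over the alternatives; in those fits 1.15% and 1.07% of all genes passed. The largest such difference in size was that of Id4, at 3.44 (SE 0.95; adjusted p 0.130 by limma). After Bmp4 in size came Grem1, at -2.26, and then Bmp7, at -1.93 (SE 0.47; adjusted p 0.121 by limma). The signs of the type difference were opposite in the sexes for 20 of 43 members (46.5%), beside 47.3% of all genes.

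**Figure D5:**
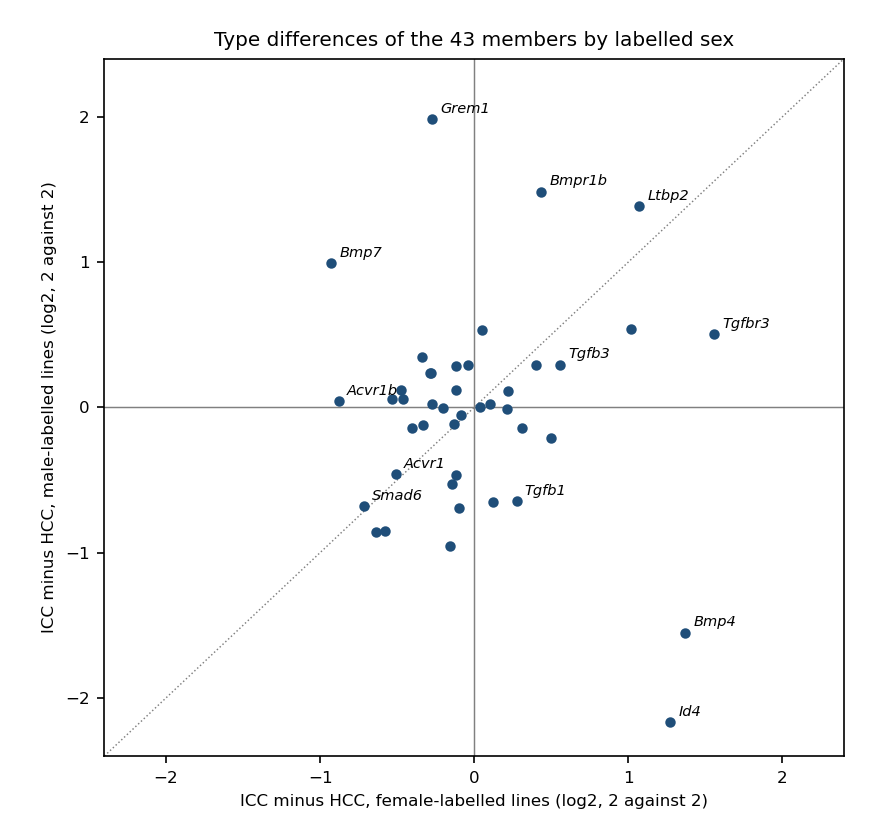
Each point is 1 of the 43 members, with its ICC minus HCC difference in female-labelled lines on the horizontal axis and in male-labelled lines on the vertical axis, in log2 units from 2 lines against 2. Bmp4 and Id4 lie at the lower right and Bmp7 at the upper left, away from the line of equal differences.

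A wider list of 94 other pathway genes gave 88 with a measured probe set. Between tumour types 1 of the 88 passed limma's adjusted threshold, beside 0.261% of all genes. At an unadjusted p under 0.05 there were 15 (17.0%), a share near the 14.1% of all genes, with 5 higher and 10 lower in ICC beside 7.06% and 7.04%. The gene that passed was Col3a1, the collagen III chain and a TGF-beta target, at 6.67 in ICC9, 6.67 in ICC10, 7.21 in ICC2.7 and 7.34 in ICC2.9, against 5.57 in HCC1, 5.63 in HCC4, 4.87 in HCC2.1 and 5.16 in HCC2.4. All ICC lines lay more than a log2 unit above all HCC lines, and the difference was 1.67 (SE 0.22; adjusted p 0.0252 by limma). The call was lost in 8 of 23 alternatives. These included the fit with the missing direction (adjusted p 0.0742) and those without ICC9 (0.0735), ICC2.7 (0.0825), ICC2.9 (0.0715), HCC2.1 (0.0842) or HCC2.4 (0.101). Over all alternatives the adjusted p lay between 0.000529 and 0.914.

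Ccn2, a matricellular TGF-beta target, measured 9.53, 9.62, 8.98 and 8.27 in ICC9, ICC10, ICC2.7 and ICC2.9, and 10.15, 10.67, 10.97 and 11.07 in HCC1, HCC4, HCC2.1 and HCC2.4. All HCC lines lay above all ICC lines, opposite to Col3a1, and the difference was -1.62 (SE 0.31; adjusted p 0.0806 by limma). The mean of its 2 probe sets gave -1.21. Fstl3, a secreted activin antagonist, measured 8.91, 8.58, 9.05 and 8.57 in the ICC lines and 6.77, 7.83, 7.84 and 7.89 in the HCC lines, in the same order. The types again did not overlap, and the difference was 1.20 (SE 0.25; adjusted p 0.0992 by limma).

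Between the sexes 7 of the 88 passed limma's adjusted threshold, beside 2.94% of all genes, and 5 of the 7 were among the 22 measured TGF-beta targets. Il11, a cytokine induced by TGF-beta, was lower in the female-labelled lines, at 6.78 in ICC9, 6.89 in ICC10, 6.97 in HCC2.1 and 7.09 in HCC2.4, against 7.93 in ICC2.7, 7.77 in ICC2.9, 8.25 in HCC1 and 8.52 in HCC4. The sexes did not overlap in either type, and the female minus male difference was -1.19 (SE 0.11; adjusted p 0.00233 by limma). Il11 passed in each of the 17 alternatives run for it. Col3a1, whose values are given above, was also lower in the female-labelled lines, by -0.60.

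Fstl1, a secreted follistatin-like gene, measured 7.95, 8.33, 7.63 and 7.04 in ICC9, ICC10, HCC2.1 and HCC2.4, and 9.83, 9.18, 10.10 and 8.82 in ICC2.7, ICC2.9, HCC1 and HCC4, a female minus male difference of -1.75. Msx2, a BMP target, measured 4.84, 5.04, 5.09 and 4.98 in the same female-labelled lines and 5.29, 5.57, 6.14 and 5.89 in the same male-labelled lines, a difference of -0.74. In both genes every male-labelled line lay above every female-labelled one. Cdkn1a, a cell-cycle inhibitor gene, measured 10.86, 10.66, 11.41 and 11.32 in the female-labelled lines and 11.63, 11.71, 11.70 and 11.83 in the male-labelled lines, a difference of -0.66. Acta2, the smooth muscle actin gene, measured 6.38, 6.25, 6.09 and 6.13 in the female-labelled lines and 7.16, 6.88, 6.46 and 6.44 in the male-labelled lines, a difference of -0.52. The sexes did not overlap in either gene, by a narrow margin in Acta2. Pmepa1, a TGF-beta target that damps the pathway, measured 11.10, 11.06, 11.38 and 11.38 in the female-labelled lines and 10.64, 10.60, 10.86 and 10.65 in the male-labelled lines, a difference of 0.54 with no overlap. The adjusted p-values of these 6 by limma lay between 0.0135 and 0.0460. With the missing direction added to the fit, where 1.26% of all genes passed, Col3a1 (0.0494) and Il11 (0.0104) stayed under the threshold, and Pmepa1 (0.0583), Fstl1 (0.0637), Msx2 (0.0760), Cdkn1a (0.0832) and Acta2 (0.122) did not. Over all alternatives run for each, the call was lost in 1 of 17 for Col3a1 (without ICC9, adjusted p 0.0856), 4 of 17 for Pmepa1, 6 of 17 for Fstl1, 7 of 16 for Msx2, 8 of 17 for Cdkn1a and 11 of 17 for Acta2. Their highest adjusted p-values were 0.0856, 0.0912, 0.107, 0.121, 0.143 and 0.201.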

How the data were processed

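RNA from 8 mouse lines was measured on Affymetrix arrays, 1 array per line. The values are log2 signals deposited by the authors, made with RMA in the oligo package per the submitters' processing notes; their versions and the genome build are not given in the sources read here. Of 39993 probe sets, 23521 named exactly 1 gene, 1814 several and 14658 none. Where a gene had several, the brightest on average was kept, which left 22180 genes.

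Differences were fitted over all genes with limma 3.58.1 (lmFit and eBayes, two-sided) in R 4.3.3, with Benjamini-Hochberg adjustment and a threshold of 0.05. Tumour type was fitted alone, sex with type, and their interaction with both. The code was tested on simulated data. Alternatives covered the eBayes options, a filter on dim genes, normalization, array weights, blocks, the missing direction and each line left out. The members and lists were chosen with earlier results of these data known. Values of all lines are given for members with an unadjusted p under 0.05 between types or a range of at least 1.5, and for the wider list's called genes and its 3 smallest p-values between types; Ltbp1 and Smad3 were added after their values were seen, as the members with the smallest adjusted p between the sexes. RefSeq promoters come from GRCm38.p6. The number of arrays limits the precision, and no scanner files were used here.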

Additional observations from a re-analysis of the deposited data

Results flagged for a closer look

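In 86 groups of 4 lines (43 members in each type), 6 had 1 line farther from the other 3 than Dixon's critical ratio allows. Chance alone gives about 1 in 20 such groups. A few are thus expected among 86, and the share over all genes was not taken. HCC4 was that line in 4 of the 6 and ICC2.9 in the other 2. Over all genes these lines also most often held the highest or lowest value of the 8, in 31.5% and 29.5% of genes.

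Ltbp1 measured 10.43 in HCC4, against 9.63 to 9.75 in the other HCC lines. Grem1, the BMP antagonist, measured 8.0 in HCC4, against 10.27 to 10.62. Id2 measured 10.33 in HCC4, against 11.35 to 11.51. Skil, the SMAD co-repressor, measured 8.95 in HCC4, against 9.27 to 9.33.

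In ICC2.9, Ltbp2 measured 6.26, against 7.68 to 7.92 in the other ICC lines. Smad7, the inhibitory SMAD, measured 8.67 in ICC2.9, against 9.13 to 9.20.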

How the results depend on the processing

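The count of members passing the adjusted threshold between tumour types was 0 as reported. It was 1 (Smad6) with only genes above the median level, with quantile normalization and with median centring, which passed 0.929%, 0.361% and 0.325% of the genes tested. It was 2 (Acvr1 and Smad6) with sex as a covariate (1.93%), 0 once the missing direction joined that fit (0.537%; chosen after seeing the data), 0 with lines of a type and sex averaged, where 0 genes passed, and 8 with array weights (10.3%). Female-labelled lines alone gave 7 (3.14% of all genes) and male-labelled lines alone 1 (0.902%). Leaving out each line gave 0 to 1, where between 0.00902% and 0.491% of all genes passed. The 1 was Tgfb2 without HCC4 (0.41%). Between the sexes the count was 0 as reported, 6 with array weights (9.18% of all genes) and 0 to 1 with lines left out (0.658% to 4.13%). For the interaction it was 0 as reported, 1 with the missing direction added and 0 to 1 with lines left out. The cause of these changes was not tested.

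For the 34 gene results given with an adjusted p, 611 of 696 alternatives gave the same direction and side of the threshold, 45 lost a call, 36 gained one and 4 reversed. Between types, Acvr1b was 0.045 in male-labelled lines, Grem1 -0.28 in female-labelled lines, and Id4 1.27 in female-labelled lines and -0.92 to 0.38 with lines left out, the latter without HCC4. The TGF-beta arm's difference stayed positive, at 0.07 to 0.18, lowest with inhibitors, latency proteins and targets added. That of the BMP arm turned only without ICC2.9, to 0.03, and was -0.14 with only members above the median gene level. The difference for the TGF-beta arm minus the BMP arm lay between 0.12 and 0.27. The random block could not be fitted for the interaction. No paired analysis was possible because the labels give no replicate numbers shared between the types. With 4 lines a type, 1 array each and a column near to a combination of the others, precision is limited by the number of lines.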

Other observations

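Lines of the same type and sex differed in how alike they were over the 43 members. The mean size of the difference between HCC2.1 and HCC2.4 was 0.117 log2 units over the members, against 0.178 over all genes. It was 0.216 between ICC9 and ICC10, 0.333 between ICC2.7 and ICC2.9 and 0.487 between HCC1 and HCC4, against 0.126, 0.213 and 0.264 over all genes. Averaged over pairs, members differed by 0.288 between lines of the same type and sex, against 0.195 over all genes. Between lines of the same type and other sex it was 0.476, against 0.296. Between lines of other type and the same sex it was 0.495, against 0.292, and for other type and sex 0.497, against 0.308. All genes thus also differed least between lines of the same type and sex.

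HCC4 held the highest or the lowest value of the 8 lines in 17 of 43 members (39.5%), beside 31.5% of all genes. ICC2.9 did so in 15 members (34.9%), beside 29.5% of all genes, and ICC2.7 in 6 (14%), beside 28.7%. ICC9 did so in 1 member (2.33%), beside 3.79% of all genes. For the other 4 lines the share of members lay between 23.3% and 30.2%, and that of all genes between 24.2% and 25.5%.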
